A study of Mus musculus with 30 samples.

Results

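The response of the kidney to ischemia-reperfusion injury (IRI) was measured in transgenic (TG) male mice, 4 hours after the injury, across every gene counted. The libraries were chosen by their labels alone: 6 libraries of TG kidneys after IRI and 3 of TG kidneys after nephrectomy (NX), 9 of the 30 in the study. The table lists 57133 genes, and 19264 had enough counts to be tested. IRI means that the blood supply of a kidney is stopped and then restored, and NX means that a kidney is taken out. The injured animals also had the nephrectomy, so the 2 groups share the transgene, the sex and the loss of a kidney. By their labels they differ in the ischemia and reperfusion. The labels name the TG genotype Gsta2-H2BeGFP, and the title of the study places the raised Gsta2 in cells of the proximal tubule. They give no promoter, strain or age, and no collection time for the NX kidneys. Time after surgery and time of day may therefore differ between the groups as well. For reference, 9 libraries of wild-type (WT) males with the same surgeries (6 IRI, 3 NX) and 3 of TG males without surgery are used. RNA with poly-A tails was read from whole kidney. Nothing in the labels says whether libraries came from separate animals, so the p-values rest on the spread among these libraries alone, which may in part be technical. Libraries are called by the replicate number of their titles, with 0 for the library that has no number.

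The kidney tubule, above all its proximal part, lives on oxidative metabolism and is the part of the organ most easily harmed when blood flow stops. In the first hours after flow returns, injured tubule cells switch on immediate early genes, whose transcription needs no new protein, then chaperones, stress response genes, cytokines and markers of injury, while genes for transport and fuel use tend to lose transcripts. The product of Gsta2 belongs to the alpha class of glutathione S-transferases and joins glutathione to reactive molecules such as products of lipid peroxidation.

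The 9 libraries held 59574069 to 91354407 counts, and 21759 to 23153 genes had a count in each. In a principal component analysis the first component (41.6% of the variance) parted the 6 IRI from the 3 NX libraries, and the second (10.5%) set IRI replicate 5 apart from the others. Correlations of log2 levels were 0.9727 to 0.9788 between IRI libraries, 0.9764 to 0.9803 between NX libraries and 0.9495 to 0.959 across the groups. NX replicate 1 stood apart from the other 2 NX libraries in a set of genes named below, and many results are also given without it. Levels are in CPM, counts per 1000000 after scaling. NX values are listed in the order of replicates 0, 1 and 2, and IRI values as lowest to highest with the median. Log2 fold changes are IRI over NX with their standard error. The adjusted p is from edgeR's quasi-likelihood test with Benjamini-Hochberg adjustment over 19264 genes, and a gene was called when it was under 0.05.

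EGFP, the marker of the transgene, was present in all 9 TG libraries, with 3.12, 3.23 and 4.64 CPM in the NX libraries and 1.19 to 6.34 CPM (median 2.19) in the IRI libraries. The groups overlapped and the gene was not called (log2 fold change -0.37 ± 1.19, adjusted p = 0.855). Gsta2 stood at 72.6, 182 and 77.3 CPM after NX and at 61.6 to 87.2 CPM (median 79.3) after IRI. These groups overlapped as well and NX replicate 1 was the highest of the 9. The gene was not called (log2 fold change -0.52 ± 0.28, adjusted p = 0.175), and without NX replicate 1 the difference was 0.04, adjusted p = 0.936. Against TG kidneys without surgery Gsta2 was called higher after IRI (log2 fold change 0.88, adjusted p = 0.0214). In WT kidneys Gsta2 was 70.6 ± 11.4 CPM after NX (mean ± SD, n = 3) and 84.1 ± 33.3 CPM after IRI (n = 6). Other alpha-class transferases are close in sequence, so the count of Gsta2 may hold reads of its relatives. The tissue label was checked against its markers. Those of each nephron segment were present, and those of lymphocytes were low, with a summed level of 1.57 to 4.8 CPM after NX and 1.47 to 4.24 CPM after IRI.

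In TG kidneys 5661 of the 19264 genes tested (29.4%) changed between NX and IRI. Of these, 3152 were higher after IRI (16.4% of genes tested) and 2509 lower (13%). Counts of called genes in the lists below should be read against these shares. A list with shares near them does not stand out from all genes. A test against a 2-fold minimum left 563 higher (2.92%) and 65 lower (0.337%). At 2-fold or more, 1378 genes were higher (7.15%) and 612 lower (3.18%). Every IRI library lay above every NX library in 3330 genes (17.3%) and below in 2767 (14.4%). Scaling changed the balance of directions: with upper-quartile factors 2488 genes were higher and 4280 lower, 36.8% of calls higher in place of 55.7%. That scaling moved the median change of all genes from -0.01 to -0.14 on the log2 scale, so small falls should be read against this shift. Without NX replicate 1 the calls were 2472 higher and 1722 lower.

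**Figure D1:**
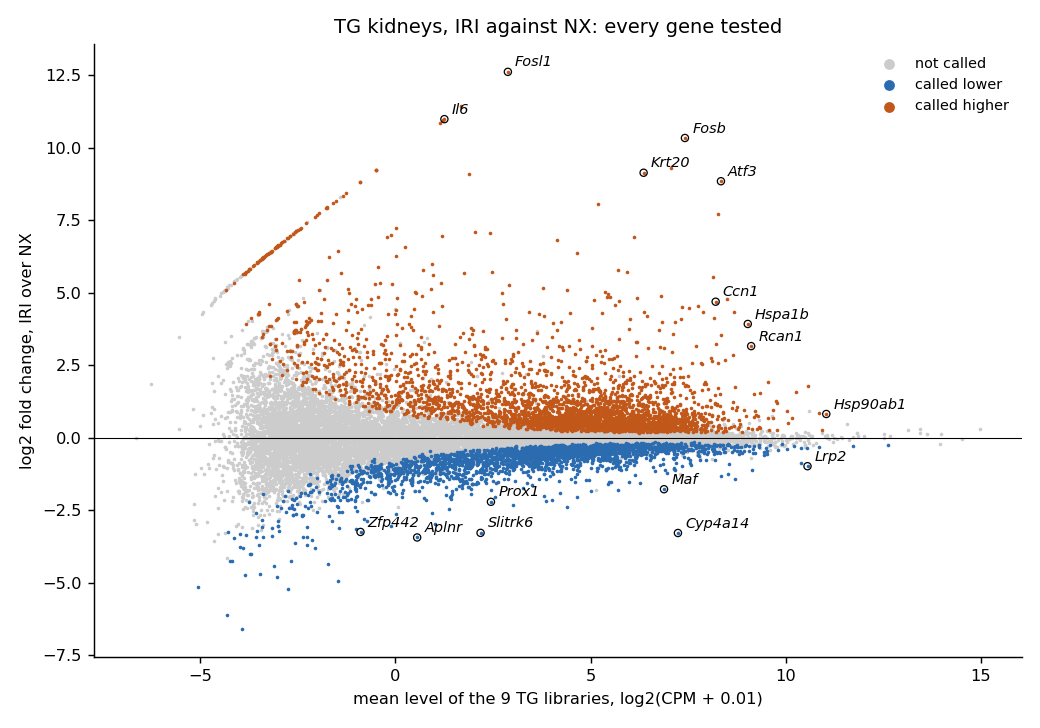
Each point is 1 of the 19264 genes tested. The horizontal axis is the mean level of the 9 TG libraries as log2(CPM + 0.01) and the vertical axis the log2 fold change of IRI over NX, with called genes in colour. Rises reached further than falls: Fosb, Atf3 and Krt20 lie near the top, and the straight line of points at upper left holds genes with 0 counts in every NX library, whose fitted change depends on the prior count.

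The genes that rose most by fold were short and mostly near 0 counts after NX. Over the 192 genes called higher by at least 16-fold, the median span from start to end was 7.29 kb and the median exon length 2247 bases, against 17.4 kb and 3637 bases over all genes tested. Their median level was 0.00977 CPM after NX and 0.619 CPM after IRI, against 6.54 and 6.75 CPM over all genes tested. Whether their length goes with this low level was not tested. Genes called higher by at least 2-fold had a median span of 14.3 kb and those called lower by at least 2-fold 14.5 kb. Genes called higher by at least 2-fold held 1.88 to 2% of the counts in the NX libraries and 5.97 to 7.21% in the IRI libraries. Among the genes called higher, 77 had 0 counts in all 3 NX libraries. For these a fold is given as a lower bound, against 3 counts over the NX group. If each read of a pair was counted, such bounds are too high.

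Transcription factors of the immediate early response were among the genes that rose most. AP-1 is a dimer of FOS, JUN and ATF proteins that turns early signals into transcription, and 11 of 13 AP-1 genes measured rose, with none lower and a median log2 fold change of 4.11 against -0.01 over all genes. Against these counts stand the 16.4% called higher among all genes. Atf3, a stress-induced member, stood at 0.893, 0.864 and 1.41 CPM in the NX libraries and at 408 to 689 CPM (median 454) in the IRI libraries. The groups were far apart, and the gene was 458-fold higher (log2 fold change 8.84 ± 0.38, adjusted p = 3.97e-12). Fosb went from 0.229, 0.256 and 0.107 CPM to 176 to 325 CPM (median 263), a 1291-fold rise (log2 fold change 10.33 ± 0.43, adjusted p = 3.23e-12). Fos, the founding member of its family, went from 0.229, 0.192 and 0.533 CPM to 148 to 251 CPM (median 198) (628-fold, adjusted p = 2.81e-12). In none of these did an IRI library come near an NX library. Fosl1 had 0 counts in all 3 NX libraries and 9.18 to 13.7 CPM (median 10.5) in the IRI libraries, at least 859-fold higher (adjusted p = 3.29e-09). Junb rose 18.2-fold, from 7.39, 6.42 and 7.26 CPM to 110.1 to 144 CPM (median 130.2) (log2 fold change 4.18 ± 0.15, adjusted p = 1.37e-12). Fosl2 rose 8.55-fold, from 13.3, 15.9 and 15.1 CPM to 116 to 135 CPM (median 128) (log2 fold change 3.10 ± 0.13, adjusted p = 3.23e-12). The AP-1 genes that did not pass the test were Mafg and Batf3. Per kilobase of exon, the mean level after IRI was 225 CPM for Atf3, 85.3 for Fos, 55.5 for Junb, 41.0 for Fosb, 13.1 for Fosl2 and 5.42 for Fosl1, while after NX the highest of these 6 were Junb (3.05) and Fosl2 (1.53).

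Among the EGR, NR4A and KLF genes and other early factors, 20 of 22 rose and none fell (median 4.02), and Egr4 and Klf9 did not pass the test. Egr1, a zinc-finger factor induced by growth signals and stress, stood at 1.45, 2.78 and 2.45 CPM after NX and at 267 to 617 CPM (median 464.7) after IRI. All 6 IRI libraries were far above the 3 NX libraries, and the rise was 208-fold (log2 fold change 7.70 ± 0.33, adjusted p = 3.97e-12). Klf6, a KLF factor known from tubule injury, went from 31.1, 28.9 and 29.0 CPM to 456 to 811 CPM (median 558) (20.3-fold, adjusted p = 2.2e-11). Csrnp1 rose 20.01-fold, from 8.45, 4.59 and 4.89 CPM to 104 to 137 CPM (median 121) (adjusted p = 1.83e-10), and Ier2, an early gene of the nucleus, rose 16.9-fold, from 7.06, 5.05 and 4.48 CPM to 62.0 to 111.6 CPM (median 98.0) (adjusted p = 8.65e-11). The groups did not overlap in any of these.

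**Figure D2:**
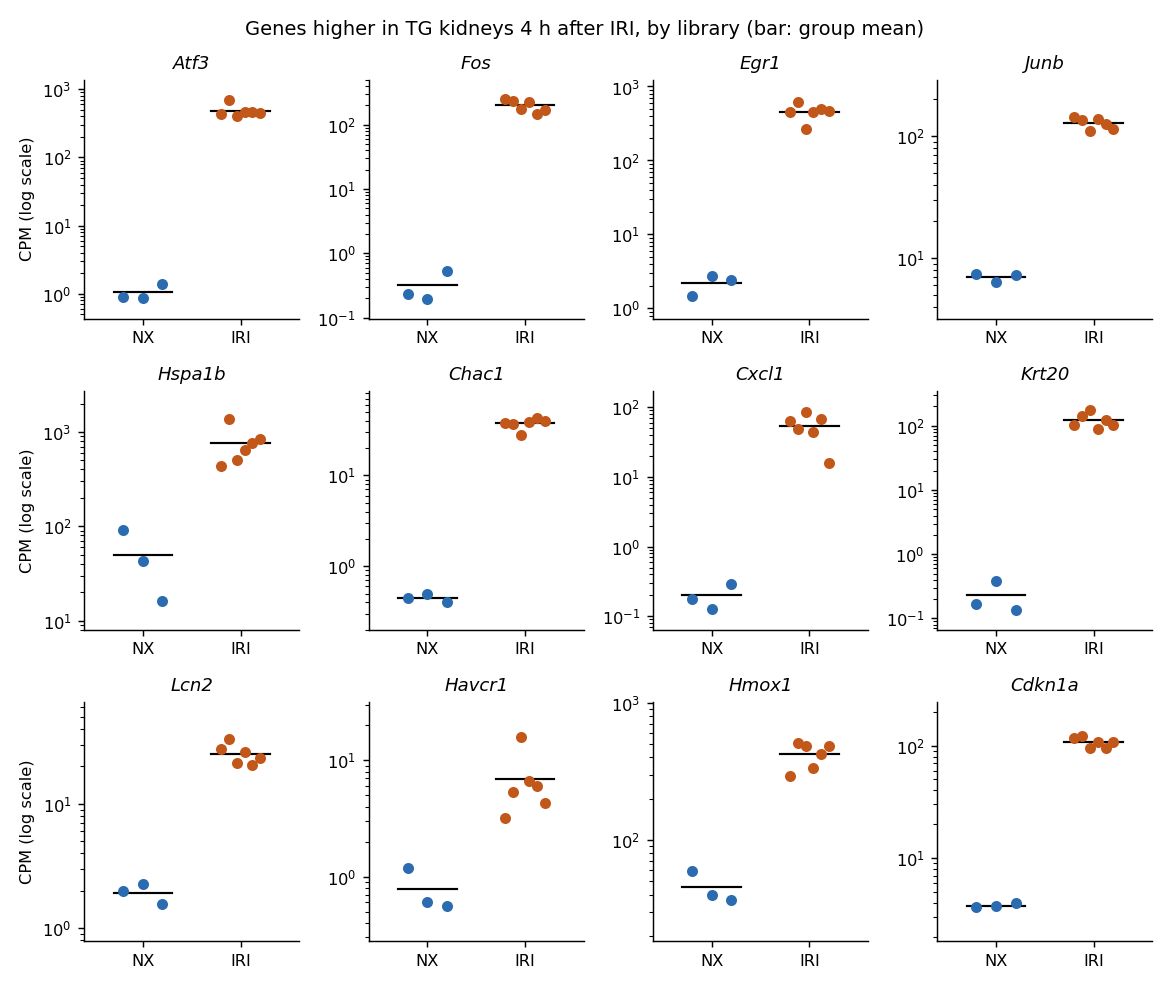
Level of 12 genes in each TG library, in CPM on a log axis, with NX libraries in blue, IRI libraries in orange and a bar at the group mean. In every panel all 6 IRI libraries lie above all 3 NX libraries: Atf3 runs from 408 to 689 CPM after IRI, with no NX library above 1.41.

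Genes that end the early signal rose with it. All 15 genes of the MAP kinase phosphatases, Sprouty and related inhibitors were called higher (median 2.04). Dusp5, a phosphatase of ERK in the nucleus, went from 1.27, 1.38 and 2.53 CPM to 82.5 to 98.5 CPM (median 90.8) (52.5-fold, log2 fold change 5.71 ± 0.35, adjusted p = 5.15e-10). Dusp8 rose 28.9-fold, from 1.97, 2.85 and 2.16 CPM to 52.2 to 92.5 CPM (median 64.2) (adjusted p = 5.35e-11), and both it and Dusp10 are phosphatases of the stress kinases JNK and p38. Dusp10 rose 12.8-fold, from 0.498, 0.352 and 0.72 CPM to 4.38 to 8.32 CPM (median 6.99) (adjusted p = 1.59e-07), and Dusp14 rose 7.05-fold, from 9.3, 12.7 and 8.62 CPM to 55.6 to 92.5 CPM (median 71.5) (adjusted p = 1.34e-07). None of the 4 had overlapping groups. Of 10 mRNA decay factors and cytokine brakes 8 rose (median 1.98), with Socs2 and Cish not called and 1 lower without NX replicate 1. Socs3, an inhibitor of cytokine receptor signalling, rose 34.1-fold, from 0.8, 1.09 and 0.879 CPM to 26.4 to 36.0 CPM (median 31.6) (log2 fold change 5.09 ± 0.23, adjusted p = 8.99e-12). Zfp36 encodes a protein that binds AU-rich mRNAs for decay. It went from 16.96, 15.6 and 25.6 CPM to 135 to 189.9 CPM (median 172) (8.53-fold, adjusted p = 5.47e-10). Btg2, an antiproliferative cofactor of mRNA deadenylation, went from 12.5, 10.1 and 12.8 CPM to 102 to 190.4 CPM (median 164) (13.2-fold, adjusted p = 1.92e-11), and Btg1 rose 3.27-fold (adjusted p = 2.41e-08).

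Some promoters of early genes carry short motifs read by factors that signals activate, and 3 of them are printed here because their genes rose over 25-fold and the motif lies close to the start of transcription. The CArG box is bound by serum response factor and the cyclic AMP response element (CRE, TGACGTCA) by CREB and ATF factors. Both strands were searched from 250 bases before to 50 after each start in RefSeq (GRCm38.p6). Promoters were found for 12727 of the 19264 genes tested (66.1%). The sequences below are the 150 bases before the start, 5′ to 3′ on the strand of the gene, with the motif in capitals. Egr2 lies at chr10:67537416-67537565 (plus strand), Dusp5 at chr19:53528995-53529144 (plus strand) and Dusp8 at chr7:142095285-142095434 (minus strand).
Egr2: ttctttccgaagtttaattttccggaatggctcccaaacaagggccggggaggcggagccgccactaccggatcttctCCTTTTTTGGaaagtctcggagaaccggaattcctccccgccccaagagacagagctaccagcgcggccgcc
Dusp5: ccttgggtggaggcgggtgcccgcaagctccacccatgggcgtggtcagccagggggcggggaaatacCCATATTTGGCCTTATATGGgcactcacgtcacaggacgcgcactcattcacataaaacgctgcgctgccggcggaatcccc
Dusp8: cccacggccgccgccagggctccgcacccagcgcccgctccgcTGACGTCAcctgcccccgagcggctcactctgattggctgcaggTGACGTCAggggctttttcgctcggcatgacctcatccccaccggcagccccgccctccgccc
Egr2, added here for its promoter, went from 0.104, 0 and 0.0533 CPM to 6.94 to 9.57 CPM (median 7.8) (133-fold, log2 fold change 7.06 ± 0.46, adjusted p = 1.52e-09). Dusp5 has 2 CArG boxes, which lie end to end in the capitals, and Dusp8 has 2 CREs. A CArG box was found in 5 of 21 promoters of the EGR, NR4A and KLF list (23.8%), against 1.63% of all promoters of this length. A CRE was found in 3 of 14 promoters of the MAP kinase phosphatase list (21.4%), against 1.79% of all. Over promoters of genes tested the shares were 1.31% for the CArG box and 2.71% for the CRE. The other lists of early genes had few of these motifs. The AP-1 factor list had 0 CArG boxes, 1 promoter with a CRE and 0 AP-1 sites in 14 promoters, the phosphatase list had a CArG box in 1 of 14, and the EGR list had 0 CREs in 21. Every start was counted, and some genes have more than 1 start. The 21 promoters of the EGR list are of 14 genes, and the 14 of the phosphatase list are of 13. Egr2 alone has 5 starts. Starts of 1 gene that lie close together can count the same motif again, so these are shares of starts and not of genes. The AP-1 site TGANTCA, which differs from the CRE in length and does not lie within it, was found in 17.9% of promoters of genes called higher by at least 16-fold and in 7.81% of all. Over promoters of genes tested its share was 5.88%. A match is a description of letters and not evidence that a factor binds there, and genes of these lists were chosen with their induction known.

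Chaperones of the heat shock response, cytosolic but for the mitochondrial Hspd1 and Hspe1, whose calls are lost without any 1 NX library, were called higher in 14 of 23 genes measured, and none fell (median 0.96). With upper-quartile factors the counts were 12 higher and 2 lower. Hspa1b, an inducible Hsp70, stood at 91.0, 42.7 and 16 CPM after NX and at 435 to 1363 CPM (median 700.0) after IRI. The 3 NX libraries were themselves spread widely, yet the highest of them lay well below the lowest IRI library (15.1-fold, log2 fold change 3.92 ± 0.71, adjusted p = 0.000301). Its neighbour Hspa1a is nearly identical, so reads may be split between the 2 genes and the separate values are uncertain. Hspb1, a small heat shock protein that binds actin, went from 14.04, 8.27 and 8.66 CPM to 114 to 224 CPM (median 162) (15.8-fold, adjusted p = 4.84e-08). The Hsp70 co-chaperones Dnajb4 and Bag3 rose 4.58-fold (adjusted p = 1.05e-06) and 4.28-fold (adjusted p = 2.27e-05). Hsp90aa1, the inducible cytosolic Hsp90, rose 3.44-fold, from 681, 576 and 468 CPM to 1293 to 3161 CPM (median 1901) (adjusted p = 2.67e-05). Its constitutive relative Hsp90ab1 rose 1.76-fold, from 1581, 1403 and 1195 CPM to 2024 to 2932 CPM (median 2403) (adjusted p = 0.000771). A heat shock element was found in 5 of 25 promoters of this list (20%), against 0.603% of all promoters and 0.458% of those of genes tested. The 25 promoters are of 19 genes, so a gene can be counted more than once.

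In the integrated stress response, in which phosphorylated eIF2-alpha favours translation of ATF4, 16 of 19 genes rose and none fell (median 2.38). Without NX replicate 1, 13 were called. Chac1, which degrades glutathione, stood at 0.447, 0.496 and 0.4 CPM after NX and at 28.1 to 42.5 CPM (median 38.4) after IRI (83.3-fold, log2 fold change 6.38 ± 0.49, adjusted p = 1.2e-08). The groups were far apart. Gdf15, a stress hormone, went from 2.97, 2.08 and 3.84 CPM to 50.4 to 94.0 CPM (median 81.7) (26.1-fold, adjusted p = 1.83e-10). Ppp1r15a, which restarts translation, went from 7.05, 5.47 and 7.67 CPM to 77.2 to 112.1 CPM (median 87.5) (13.5-fold, adjusted p = 3.23e-12), and Ddit3, a proapoptotic factor, from 7.73, 6.77 and 5.81 CPM to 37.6 to 68.1 CPM (median 44.9) (7.23-fold, adjusted p = 3.52e-09). In the unfolded protein response of the endoplasmic reticulum 4 of 17 genes rose and 1 fell (median 0.07, which turns to -0.07 with upper-quartile factors). The genes that rose were Dnajb9 (2.88-fold, adjusted p = 2.9e-06), Herpud1 (1.9-fold, adjusted p = 0.000241), Hspa5 (1.62-fold, adjusted p = 0.00141) and Xbp1 (1.48-fold, adjusted p = 0.000197), and the gene that fell was Edem1. Lower calls numbered 0 without NX replicate 1 and 4 with upper-quartile factors. Hspa5 encodes BiP, the main chaperone of that compartment. With TG kidneys without surgery as the reference, 13 of the 17 genes were called higher and 0 lower. That fit called 40.3% of all genes tested in either direction. Hspa5 had a mean of 418, 856 and 1380 CPM in kidneys without surgery, after NX and after IRI.

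Cytokine and chemokine genes rose in 18 of 26 genes measured and fell in 1, Cxcl12 (median 2.87). The counts were 16 higher and 0 lower without NX replicate 1, and the call of Cxcl12 is lost without any 1 of 6 libraries. Cxcl1, a chemokine that draws neutrophils, stood at 0.176, 0.128 and 0.293 CPM after NX and at 15.9 to 86.0 CPM (median 55.9) after IRI (268-fold, log2 fold change 8.07 ± 0.87, adjusted p = 9.56e-07). The groups did not overlap, and the lowest IRI value was that of replicate 5. Cxcl2, its close relative, had 0 counts in the NX libraries and 0.64 to 8.95 CPM (median 5.27) in the IRI libraries, at least 376-fold higher (adjusted p = 1.2e-05, and 0.0534 with limma-voom). Il6 also went from 0 in every NX library to a range of 0.974 to 7.29 CPM (median 3.19), at least 277-fold higher (adjusted p = 1.46e-06). Lif, a cytokine of the interleukin-6 family, rose 112.3-fold, from 0.145, 0.224 and 0.346 CPM to 14.02 to 48.3 CPM (median 25.4) (log2 fold change 6.81 ± 0.68, adjusted p = 3.8e-07). Ccl2, which draws monocytes, rose 50.6-fold, from 0.0415, 0.128 and 0.133 CPM to 3.32 to 6.94 CPM (median 4.73) (adjusted p = 1.74e-08), and Csf1, the macrophage growth factor, rose 4.37-fold, from 7.91, 5.92 and 8.37 CPM to 28.3 to 37.1 CPM (median 31.5) (adjusted p = 4.96e-07). Tnfsf18, a ligand of the TNF family, went from 0 in every NX library to a range of 0.565 to 1.81 CPM (median 1.02), at least 82.2-fold higher (adjusted p = 0.000135).

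Of 19 NF-kB subunits and targets 15 rose and none fell (median 1.76). NF-kB is held in the cytoplasm by IkB proteins until a signal destroys them, and many of its targets are its own inhibitors. The subunit Rela went from 28.8, 25.5 and 27.8 CPM to 102 to 111.5 CPM (median 107) (3.9-fold, log2 fold change 1.97 ± 0.11, adjusted p = 1.83e-10), with narrow groups that lay wide apart, and the subunit Relb rose 8.74-fold, from 2.29, 2.03 and 2.88 CPM to 15.7 to 27.5 CPM (median 20.6) (adjusted p = 1.85e-09). Among the inhibitors, Tnfaip3 rose 6.19-fold, from 5.56, 5.97 and 8.22 CPM to 26.8 to 52.1 CPM (median 41.7) (adjusted p = 2.56e-08). The nuclear IkB protein Nfkbiz rose 8.36-fold, from 5.13, 4.97 and 3.44 CPM to 28.7 to 49.9 CPM (median 36.4) (adjusted p = 1.06e-09), and Nfkbia, added here for its promoter, rose 4.002-fold, from 13.5, 12.9 and 22.5 CPM to 50.5 to 77.9 CPM (median 65.0) (adjusted p = 2.63e-07). No IRI library fell within the NX range in any of these.

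The following 5 promoters of chemokine, cytokine and inhibitor genes are printed because each has an NF-kB site near the start, which most promoters of the cytokine list lack. They are again the 150 bases before the start in RefSeq (GRCm38.p6), read on the strand of the gene, with NF-kB sites on either strand in capitals. Cxcl1 lies at chr5:90891095-90891244 (plus strand), Cxcl2 at chr5:90903749-90903898 (plus strand), Il6 at chr5:30012964-30013113 (plus strand), Nfkbia at chr12:55492648-55492797 (minus strand) and Tnfaip3 at chr10:19015411-19015560 (minus strand).
Cxcl1: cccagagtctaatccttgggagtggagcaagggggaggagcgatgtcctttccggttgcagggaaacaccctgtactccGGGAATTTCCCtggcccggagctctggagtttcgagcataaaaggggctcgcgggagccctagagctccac
Cxcl2: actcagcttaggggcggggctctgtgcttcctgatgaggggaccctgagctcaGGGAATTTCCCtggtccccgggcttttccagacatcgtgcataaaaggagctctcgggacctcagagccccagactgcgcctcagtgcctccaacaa
Il6: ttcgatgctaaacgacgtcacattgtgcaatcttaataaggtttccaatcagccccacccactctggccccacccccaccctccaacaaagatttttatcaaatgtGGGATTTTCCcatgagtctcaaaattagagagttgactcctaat
Nfkbia: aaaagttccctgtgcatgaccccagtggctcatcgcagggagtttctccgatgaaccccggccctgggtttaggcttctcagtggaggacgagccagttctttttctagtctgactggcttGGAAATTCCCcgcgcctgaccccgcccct
Tnfaip3: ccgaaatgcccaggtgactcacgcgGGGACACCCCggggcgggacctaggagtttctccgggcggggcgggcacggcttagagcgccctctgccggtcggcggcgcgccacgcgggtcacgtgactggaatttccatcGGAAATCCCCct
The sites of Cxcl1 and Cxcl2 have the same letters and match the motif on both strands. An NF-kB site was found in 11 of 21 promoters of the NF-kB list (52.4%) and in 6 of 19 promoters of the cytokine list (31.6%), against 4.51% of all promoters. The promoters of these lists are of 15 and 17 genes, so a gene can be counted more than once. Over promoters of genes tested the share was 5.34%. Among promoters of genes called higher by at least 16-fold the share was 6.72%. These lists hold known NF-kB targets, so the share describes how they were chosen.

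Of 9 neutrophil markers measured 7 were called higher. The summed level of the list was 1.14 to 1.33 CPM in the NX and 7.66 to 49.5 CPM in the IRI libraries. S100a8 and S100a9, the subunits of calprotectin, stood at 1.33 to 8.63 CPM (median 2.31) and 1.86 to 18.2 CPM (median 4.66) after IRI, with no NX library above 0.107 CPM (123-fold, adjusted p = 3.02e-05, and 138-fold, adjusted p = 4.92e-05). With limma-voom neither was called (adjusted p = 0.0573 for S100a8 and 0.0921 for S100a9). The decoy receptor gene Il1r2 rose 31.5-fold, from 0.125, 0.032 and 0.0267 CPM to 0.728 to 5.28 CPM (median 1.49) (adjusted p = 7.26e-05), and Clec4d, a lectin of myeloid cells, went from 0 in every NX library to a range of 0.306 to 3.78 CPM (median 0.566), at least 81.2-fold higher (adjusted p = 0.000575). The neutrophil genes Ly6g, Ngp and Camp had too few counts to be tested. IRI replicate 4 was the highest library for S100a8, S100a9, Il1r2 and Clec4d. Macrophage and dendritic markers were called higher in 1 and lower in 3 of 15 genes. Cx3cr1, the fractalkine receptor of resident macrophages, fell 6.05-fold, from 4.63, 3.1 and 5.18 CPM to 0.425 to 1.08 CPM (median 0.704) (log2 fold change -2.60 ± 0.25, adjusted p = 2.37e-07). The other 2 that fell were Adgre1 (1.84-fold lower, adjusted p = 0.0177) and Clec9a (2.21-fold lower, adjusted p = 0.0211), while Cd68, a lysosomal protein, rose 2.998-fold (adjusted p = 3.39e-06). The calls of Adgre1 and Clec9a are lost without NX replicate 2, and that of Adgre1 also without NX replicate 0. In whole tissue, fewer cells of a type and less RNA per cell cannot be told apart, and the part of incoming neutrophils in the cytokine rises was not tested.

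Markers of tubule injury rose in 19 of 23 genes (median 2.26), with Cdh6, Fga, Fgb and Fgg not called. Lcn2 encodes NGAL, an iron-carrier protein of injured tubule and of neutrophils. It went from 1.97, 2.24 and 1.57 CPM to 20.6 to 33.1 CPM (median 24.7) (13.1-fold, log2 fold change 3.72 ± 0.33, adjusted p = 8.54e-08). Havcr1 encodes KIM-1, a receptor on injured proximal tubule cells. It went from 1.18, 0.608 and 0.56 CPM to 3.18 to 15.8 CPM (median 5.71) (8.71-fold, log2 fold change 3.12 ± 0.54, adjusted p = 0.000216), with the highest value in IRI replicate 2. Neither gene had overlapping groups. Keratins of simple epithelium rose, among them Krt20, from 0.166, 0.384 and 0.133 CPM to 88.0 to 175 CPM (median 114) (561-fold, log2 fold change 9.13 ± 1.22, adjusted p = 1.31e-05), and Krt8, from 76.6, 71.8 and 84.4 CPM to 482 to 623 CPM (median 586) (7.29-fold, adjusted p = 1.6e-09). Tnfrsf12a, the TWEAK receptor, went from 12.96, 12.1 and 15.7 CPM to 276 to 368 CPM (median 305) (23.1-fold, adjusted p = 2.76e-11). Plaur, the urokinase receptor, rose 26.6-fold (adjusted p = 3.66e-10), and Cldn4, a tight junction claudin, rose 15.8-fold (adjusted p = 2.47e-08).

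Ligands of the EGF receptor drive repair of the tubule. Of 13 genes of the receptor family, its ligands and its inhibitors, 7 rose and none fell (median 0.57). They were the receptor gene Egfr, the ligand genes Areg, Ereg, Hbegf and Nrg1, and the inhibitor genes Lrig1 and Errfi1. Errfi1 is also counted in the MAP kinase phosphatase and Sprouty list. Hbegf, a ligand shed from the cell surface, stood at 13.6, 8.53 and 14.3 CPM after NX and at 234 to 319 CPM (median 262) after IRI (22.3-fold, log2 fold change 4.48 ± 0.21, adjusted p = 1.9e-11). The ligand Nrg1 rose 4.93-fold, from 17.9, 13.2 and 20.9 CPM to 68.2 to 106 CPM (median 83.0) (adjusted p = 8.92e-06). Areg went from 0, 0.032 and 0 CPM to 0.888 to 1.81 CPM (median 1.12) (adjusted p = 3.01e-06), and Ereg from 0 in every NX library to a range of 0.108 to 0.445 CPM (median 0.211), at least 18.9-fold higher (adjusted p = 0.000186). The 6 members not called were Erbb2, Erbb3, Erbb4, Egf, Tgfa and Btc.

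**Figure D3:**
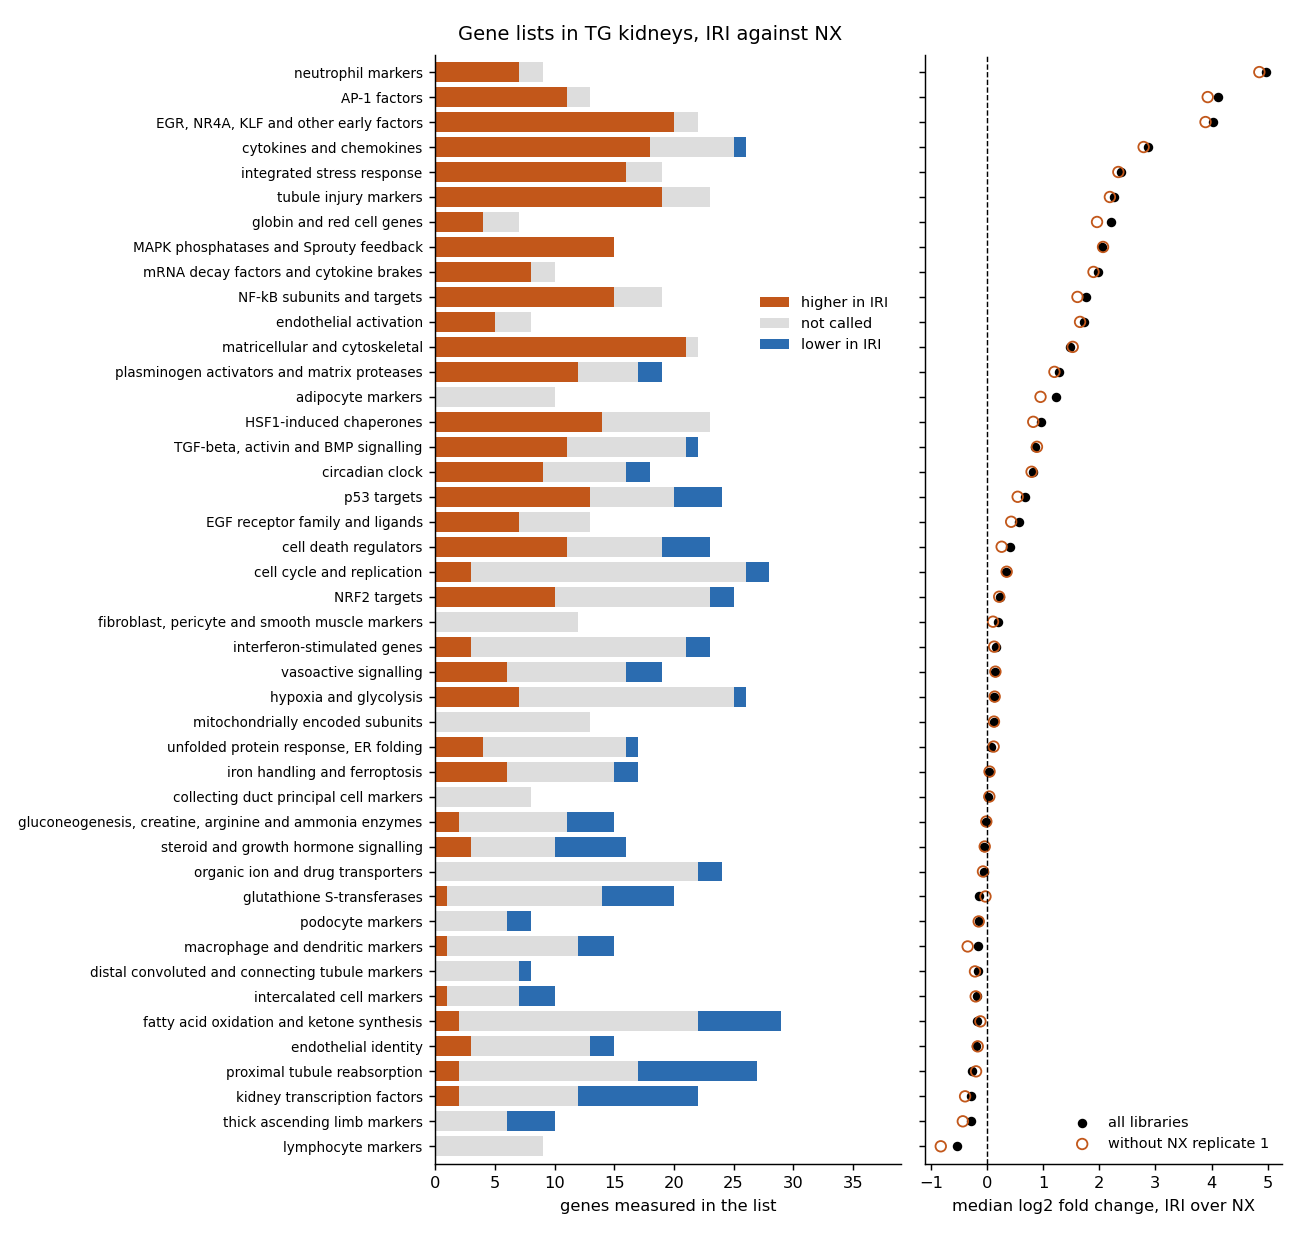
For each of 44 gene lists, bars give the number of measured genes called higher, not called and called lower after IRI, and points the median log2 fold change with all libraries (filled) and without NX replicate 1 (open). The dashed line is the median over all genes tested, -0.01. Neutrophil markers have the highest median (4.975) and lymphocyte markers, of which none was called, the lowest (-0.54). Early factors, cytokines, integrated stress response and injury genes also stand near the top. Kidney transcription factors and proximal tubule transport genes stand near the foot.

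Genes of matrix and cytoskeleton rose in 21 of 22 cases, with Tagln the exception (median 1.48). Ccn1, a matricellular protein and target of YAP, stood at 26.8, 16.8 and 6.73 CPM after NX and at 382 to 499.8 CPM (median 429) after IRI (25.8-fold, log2 fold change 4.69 ± 0.37, adjusted p = 2.25e-08). The tubulin genes Tubb6 (6.998-fold, adjusted p = 3.77e-08) and Tuba1c (3.52-fold, adjusted p = 1.26e-09) and the focal adhesion gene Zyx (2.67-fold, adjusted p = 2.94e-08) rose as well. Plasminogen activators, matrix proteases and their inhibitors rose in 12 of 19 genes and fell in 2, Mmp13 and Adamts15. The counts were 10 higher and 0 lower without NX replicate 1, and both falls are also lost without NX replicate 2. The protease gene Adamts1 went from 46.1, 40.9 and 34.2 CPM to 384 to 586 CPM (median 453) (11.6-fold, adjusted p = 8.01e-11), and its relative Adamts4 rose 24.6-fold (adjusted p = 6.17e-08). Mmp10, a stromelysin, went from 0 in every NX library to a range of 1.76 to 5.06 CPM (median 3.57), at least 271-fold higher (adjusted p = 0.000644). Of TGF-beta, activin and BMP genes 11 of 22 rose and 1 fell, Id4, while without NX replicate 1 2 fell. Inhbb, an activin subunit, rose 19.1-fold, from 0.872, 0.736 and 1.31 CPM to 13.4 to 30.0 CPM (median 16.8) (adjusted p = 2.85e-08), Skil, a brake on SMAD signalling, rose 2.1-fold (adjusted p = 3.15e-06), and Id1, a BMP target, rose 1.96-fold (adjusted p = 0.00107).

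NRF2 controls genes of glutathione, thioredoxin and heme metabolism, and 10 of 25 of them rose while 2, Gclm and Cat, fell (median 0.22). The counts were 9 higher and 0 lower without NX replicate 1, and the calls of Gclm and Cat are also lost without NX replicate 2. Hmox1, heme oxygenase, went from 59.4, 39.8 and 36.8 CPM to 293 to 507.7 CPM (median 453) (9.3-fold, log2 fold change 3.22 ± 0.30, adjusted p = 2.11e-07). Srxn1, which repairs peroxiredoxins, went from 51.2, 58.2 and 59.2 CPM to 310.5 to 451 CPM (median 381) (6.75-fold, adjusted p = 7.38e-08). The metallothioneins Mt1 and Mt2, which also answer to metals and glucocorticoids, rose 6.01-fold (adjusted p = 4.67e-09) and 20.02-fold (adjusted p = 1.32e-08). The 13 members not called include Nqo1, Gclc, G6pdx and Gsr. Glutathione S-transferases, the family of Gsta2, rose in 1 of 20 genes and fell in 6 (median -0.14). Gsto1 rose 1.65-fold, from 21.9, 26.9 and 21.4 CPM to 28.3 to 49.7 CPM (median 40.9) (adjusted p = 0.00214). Gstm1 fell 1.42-fold, from 449, 398 and 444 CPM to 237 to 357 CPM (median 302) (log2 fold change -0.51 ± 0.13, adjusted p = 0.00519), and Gstz1 fell 1.28-fold (adjusted p = 0.00255). The microsomal enzyme gene Mgst1 was called lower (log2 fold change -0.96 ± 0.26, adjusted p = 0.00868), but it stood at 50.05, 139 and 40.2 CPM in the NX libraries, and without NX replicate 1 the change was -0.20, adjusted p = 0.473. Without that library 2 of the family were called lower.

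Genes of cell death and of the p53 response were called in both directions, against 16.4% higher and 13% lower among all genes. The shares called lower in these lists were near that of all genes. Of 23 cell death regulators 11 rose and 4 fell (Bcl2, Bid, Bmf and Pycard). Both protective and lethal BCL2 relatives were among those that rose: Mcl1 (3.25-fold, adjusted p = 1.03e-08) and Bcl2l1 (2.65-fold, adjusted p = 3.17e-07) block apoptosis, and Pmaip1 (8.09-fold, adjusted p = 2.61e-07) and Bbc3 (5.45-fold, adjusted p = 2.89e-05) start it. Pmaip1 went from 9.01, 7.05 and 5.4 CPM to 38.0 to 88.2 CPM (median 52.5). Of 24 p53 targets 13 rose and 4 fell (Ccng1, Rrm2b, Tigar and Ei24). Cdkn1a, the cell cycle inhibitor p21, stood at 3.69, 3.73 and 3.97 CPM after NX and at 94.5 to 122 CPM (median 108) after IRI (28.2-fold, log2 fold change 4.82 ± 0.27, adjusted p = 1.29e-10), and Plk2, a stress-induced kinase, rose 5.95-fold, from 9.39, 7.95 and 10.9 CPM to 45.0 to 68.4 CPM (median 56.4) (adjusted p = 7.51e-10). The rises of Cdkn1a and Bbc3 were smaller against TG kidneys without surgery. There Cdkn1a had a log2 fold change of 2.62 (adjusted p = 3.49e-05) and Bbc3 of 1.25 (adjusted p = 0.00762), against 2.445 with NX. In that fit, which called 40.3% of all genes in either direction, 13 p53 targets were called higher and 5 lower. Hypoxia and glycolysis genes rose in 7 of 26 cases and fell in 1 (Pgam1), with a median of 0.13 that turns to -0.01 with upper-quartile factors. Lower calls numbered 0 without NX replicate 1 and 4 with upper-quartile factors. Adm, a vasodilator peptide induced by hypoxia, rose 4.31-fold, from 5.03, 4.94 and 8.01 CPM to 16.5 to 39.5 CPM (median 24.4) (adjusted p = 6.22e-06). Hilpda, of lipid droplets, rose 4.99-fold (adjusted p = 3.96e-06), the glucose transporter gene Slc2a1 2.54-fold (adjusted p = 6.25e-05), and the histone demethylase gene Kdm3a 2.01-fold (adjusted p = 3.12e-05). The glycolytic genes Ldha, Pgk1, Pkm, Eno1 and Aldoa were not called.

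In absolute level, the largest gains were of abundant transcripts. Beside Hsp90aa1, Hsp90ab1 and Hspa1b they were Sqstm1, Tsc22d1, Rcan1, Ezr and Actg1. Sqstm1, the autophagy receptor p62, went from 564, 498 and 527.4 CPM to 1444 to 1707 CPM (median 1582) (2.98-fold, log2 fold change 1.58 ± 0.16, adjusted p = 5.5e-07). Rcan1, an inhibitor of calcineurin, went from 102, 90.8 and 71.8 CPM to 674 to 845 CPM (median 798) (8.91-fold, log2 fold change 3.16 ± 0.26, adjusted p = 3.52e-08). Tsc22d1 rose 3.77-fold, from 232, 276 and 284 CPM to 859 to 1183 CPM (median 956) (adjusted p = 9.68e-08). Ezr, which ties the brush border membrane to actin, rose 2.4-fold (adjusted p = 3.11e-07), and the actin gene Actg1 rose 2.28-fold (adjusted p = 4.19e-08). Other genes of very large fold were Vgf, a secreted neuropeptide precursor (2.36 to 9.08 CPM (median 5.25) after IRI, 0 in all NX libraries but replicate 0, adjusted p = 1.08e-05), and Grp, gastrin-releasing peptide (0 in every NX library, 0.307 to 1.55 CPM (median 1.17) after IRI, at least 81.2-fold higher, adjusted p = 0.00127). Ifi202b was called higher (adjusted p = 0.0363) but ran from 0 to 10.6 CPM (median 2.23) in the IRI libraries, with 0 in every NX library, and it lost the call without IRI replicates 1 or 2 or any NX library.

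Falls were smaller. Proximal tubule transport and endocytosis genes fell in 10 of 27 cases and rose in 2 (median -0.28), against 13% called lower and 16.4% called higher among all genes. Lrp2 encodes megalin, the endocytic receptor of the brush border. It stood at 2068, 2678 and 1986 CPM after NX and at 889 to 1363 CPM (median 1146) after IRI (1.98-fold lower, log2 fold change -0.98 ± 0.20, adjusted p = 0.000923). No IRI library reached the lowest NX library. Slc2a2, the basolateral glucose transporter, fell 1.37-fold, from 255, 304 and 288 CPM to 191 to 224 CPM (median 208) (adjusted p = 0.000395), and the amino acid transporter gene Slc6a20b fell 1.36-fold (adjusted p = 0.000777). Slc20a2, a phosphate transporter, rose 1.32-fold (adjusted p = 0.00173). Slc34a1, Slc5a2 and Aqp1 were not called. Without NX replicate 1 the counts were 8 lower and 1 higher, and with upper-quartile factors 15 and 1. Of 24 organic ion and drug transporters 2 fell and none rose. They were Slco4c1, from 36.4, 14.1 and 48.8 CPM to 5.31 to 12.99 CPM (median 6.35) (4.47-fold lower, adjusted p = 0.000239), and Slc22a13 (1.73-fold lower, adjusted p = 0.0308), whose groups overlapped and whose call is lost without any 1 of 5 libraries.

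Among the largest losses of CPM, beside that of Lrp2, were those of metabolic genes and of Keg1. Keg1 fell 1.81-fold, from 2097, 1540 and 2149 CPM to 828 to 1393 CPM (median 1037) (adjusted p = 0.000914). Ak4, a mitochondrial adenylate kinase, fell 2.16-fold, from 760.2, 1002 and 856 CPM to 322 to 479 CPM (median 397) (log2 fold change -1.11 ± 0.14, adjusted p = 9.89e-06), with no overlap. G6pc, glucose-6-phosphatase of the last step of gluconeogenesis, fell 2.72-fold, from 402, 856 and 879.8 CPM to 178 to 418 CPM (median 249) (adjusted p = 0.00114), although NX replicate 0 lay within the IRI range. Smaller losses were those of Sord (1.25-fold, adjusted p = 0.003, but called higher against TG kidneys without surgery, with a log2 fold change of 0.21, adjusted p = 0.0413), Cyp2j5 (1.28-fold, adjusted p = 0.00371) and the fatty acid transporter gene Slc27a2 (1.21-fold, adjusted p = 0.0398), the last lost without any 1 of 6 libraries.

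Fatty acid oxidation and ketone genes fell in 7 of 29 cases and rose in 2 (median -0.19). Pdk4, the kinase that shuts pyruvate dehydrogenase, rose 19.9-fold, from 16.1, 16.2 and 19.6 CPM to 232 to 490.5 CPM (median 346) (log2 fold change 4.32 ± 0.48, adjusted p = 1.43e-06), and Angptl4, an inhibitor of lipoprotein lipase, rose 3.74-fold, from 34.4, 28.9 and 68.7 CPM to 135 to 178 CPM (median 171) (adjusted p = 4.15e-05). The peroxisomal enzyme gene Ehhadh fell 1.39-fold, from 926, 758 and 874 CPM to 516 to 704 CPM (median 626) (adjusted p = 0.00463), and Etfb fell 1.29-fold (adjusted p = 0.00428). Calls of other members rest on NX replicate 1. Cyp4a14, a fatty acid hydroxylase, stood at 18.3, 1062 and 45.7 CPM in the NX libraries and at 5.47 to 94.5 CPM (median 34.1) in the IRI libraries (log2 fold change -3.29 ± 0.94, adjusted p = 0.0125), and without NX replicate 1 the change was 0.27, adjusted p = 0.874. Cyp4a10, added here after its values were seen, stood at 285, 1076 and 265 CPM and 116 to 314 CPM (median 219) (log2 fold change -1.33 ± 0.37, adjusted p = 0.00953), and without that library at -0.35, adjusted p = 0.473. Cyp4a10 and Cyp4a14 are close in sequence, so reads may be shared between them. Ugt1a2, a transferase of glucuronic acid whose gene shares exons with others of its locus, stood at 0.696, 12.8 and 0.853 CPM and 0.0474 to 0.876 CPM (median 0.714) (log2 fold change -2.98 ± 0.78, adjusted p = 0.0066), and without NX replicate 1 at -0.37, adjusted p = 0.783. In all 3 the IRI libraries overlapped NX replicates 0 and 2. Without NX replicate 1 the list had 4 genes lower and 2 higher. Of gluconeogenesis, creatine, arginine and ammonia enzymes 4 of 15 fell and 2 rose, and without NX replicate 1 the counts were 2 and 1. Gatm, of creatine synthesis, fell 1.34-fold (adjusted p = 0.00479), and without NX replicate 1 the change was -0.33, adjusted p = 0.0553.

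**Figure D4:**
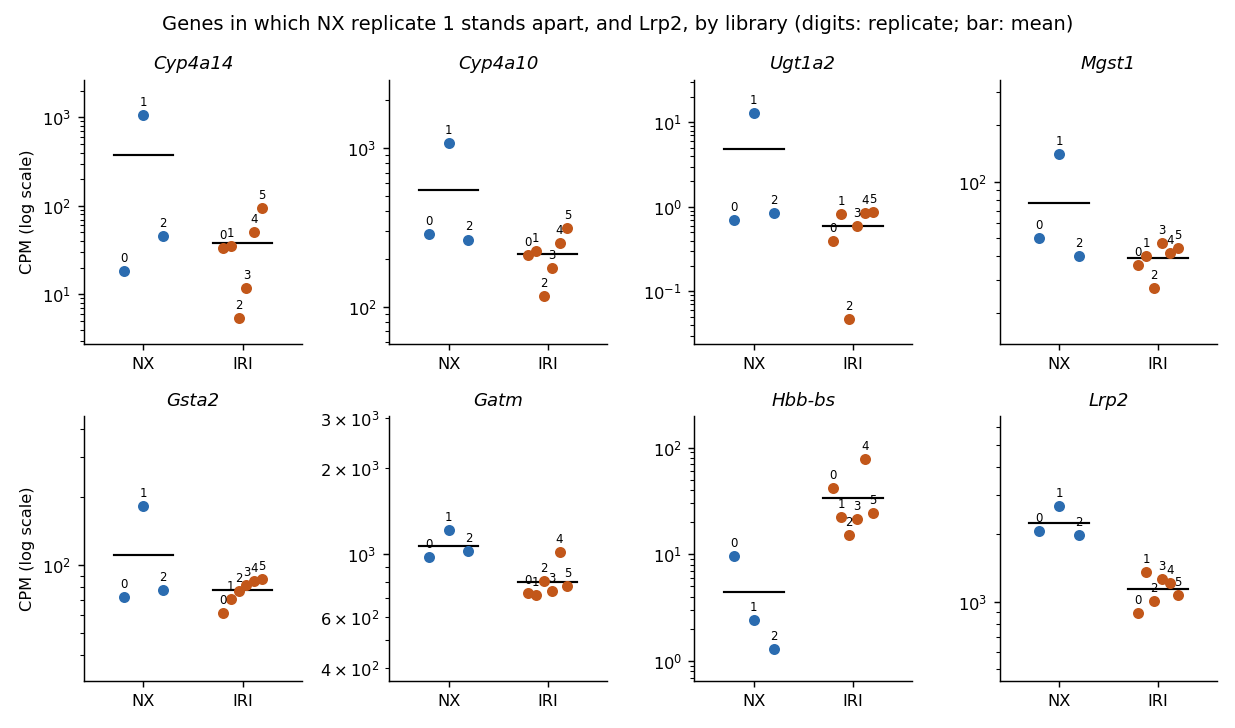
Level of 8 genes by library, in CPM on a log axis, with the replicate number over each point and a bar at the mean. NX replicate 1 is the highest library in Cyp4a14, Cyp4a10, Ugt1a2, Mgst1, Gsta2 and Gatm, while in Lrp2 all 3 NX libraries lie above every IRI library. Hbb-bs is low in NX replicates 1 and 2.

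The genes of largest fall by fold are given here. Aplnr, the apelin receptor, went from 3.28, 3.84 and 3.97 CPM to 0.161 to 0.584 CPM (median 0.293) (10.8-fold lower, log2 fold change -3.44 ± 0.65, adjusted p = 0.000449). Slitrk6, a membrane protein of neurite growth, went from 16.8, 5.6 and 11.3 CPM to 0.323 to 2.23 CPM (median 0.831) (9.72-fold lower, adjusted p = 0.000165). Zfp442 fell 9.51-fold (adjusted p = 8.44e-06), Zfp937 fell 5.21-fold (adjusted p = 0.00407), and Sall2, a transcriptional repressor, fell 4.5-fold, from 28.6, 39.05 and 23 CPM to 6.12 to 7.57 CPM (median 6.61) (adjusted p = 7.38e-07). The adrenergic receptor gene Adra2c fell 8.78-fold (adjusted p = 3.25e-05), the anoctamin gene Ano3 8.29-fold (adjusted p = 0.00172) and Tril, an accessory protein of Toll-like receptors, 5.43-fold (adjusted p = 5.14e-05). Every IRI library was below every NX library in these 8 genes.

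Transcription factors that define kidney epithelium fell in 10 of 22 cases and rose in 2, Pax8 and Nr1h4 (median -0.29), with 1 higher without NX replicate 1. In 10 genes every IRI library lay below every NX library. Maf went from 192, 236 and 241 CPM to 54.5 to 77.3 CPM (median 65.0) (3.42-fold lower, log2 fold change -1.78 ± 0.17, adjusted p = 2.6e-07). Lhx1, a factor of nephron patterning, fell 2.14-fold, from 20.1, 24.8 and 25.4 CPM to 9.82 to 13.6 CPM (median 10.6) (adjusted p = 6.11e-07). Tfap2b, of the distal nephron, fell 2.21-fold, from 46.1, 37.1 and 39.01 CPM to 13.7 to 23.7 CPM (median 18.3) (adjusted p = 6.22e-05), and Emx2 fell 1.64-fold (adjusted p = 5.32e-05). Prox1, a homeobox factor outside the list, fell 4.63-fold, from 11.8, 9.02 and 13.3 CPM to 1.82 to 3.32 CPM (median 2.41) (log2 fold change -2.21 ± 0.24, adjusted p = 9.46e-07). Hnf4a, which holds proximal tubule identity, was not called with TMM factors, but was called lower with upper-quartile factors (adjusted p = 0.00922). It ran from 682 to 861 CPM (median 777) after IRI and stood at 990.4, 1059 and 862 CPM after NX (adjusted p = 0.0833).

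Of 10 thick ascending limb markers 4 fell, against 13% called lower among all genes. Bsnd, a chloride channel subunit, went from 46.4, 40.7 and 40.2 CPM to 10.3 to 20.4 CPM (median 14.3) (2.85-fold lower, log2 fold change -1.51 ± 0.21, adjusted p = 1.97e-05), and the potassium channel gene Kcnj1 from 230.1, 180.3 and 252 CPM to 83.5 to 133 CPM (median 94.8) (2.15-fold lower, adjusted p = 0.000183). The defining genes of that segment, Slc12a1 and Umod, were not called. Slc12a1 stood at 1440, 966 and 1415 CPM after NX and 868 to 1833 CPM (median 1211) after IRI, and Umod at 2047, 1560 and 2602 CPM and 1745 to 2601 CPM (median 2038). The other 2 that fell, Cldn19 (adjusted p = 0.0109) and Ppp1r1b (adjusted p = 0.00966), lose the call without NX replicate 0. Of 8 distal convoluted and connecting tubule markers only Wnk1 fell (1.45-fold, adjusted p = 0.00149), and none of 8 principal cell markers was called with TMM factors (median 0.01, which turns to -0.13 with upper-quartile factors). Aqp2, the water channel, stood at 228, 174 and 196 CPM and 199 to 385 CPM (median 292) (adjusted p = 0.0608). Of 10 intercalated cell markers 3 fell, among them Hmx2 (3.25-fold, adjusted p = 0.00387) and Kit (1.54-fold, adjusted p = 0.000823), and 1 rose, and without NX replicate 1 the counts were 2 and 0.

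In the endothelium, activation genes rose in 5 of 8 cases (median 1.73). Sele, which slows leukocytes on the vessel wall, rose 9.34-fold, from 0.498, 0.128 and 0.666 CPM to 2.79 to 5.88 CPM (median 4.12) (adjusted p = 5.56e-05). The adhesion molecules Icam1 and Vcam1, which tubule cells also make, rose 3.87-fold (adjusted p = 2.67e-08) and 3.47-fold (adjusted p = 1.32e-07). Apln, the ligand of the receptor Aplnr, rose 3.15-fold, from 5.44, 5.02 and 4.98 CPM to 10.6 to 19.9 CPM (median 16.8) (adjusted p = 1.95e-05). Identity genes were called higher in 3 and lower in 2 of 15 cases. Cdh5 rose 2.08-fold, from 24.8, 30.4 and 30.3 CPM to 51.0 to 71.6 CPM (median 57.0) (adjusted p = 6.09e-05), and Robo4 1.999-fold (adjusted p = 7.8e-05), while Tek, the angiopoietin receptor, fell 2.13-fold, from 32.0, 33.9 and 42.9 CPM to 9.9 to 20.8 CPM (median 18.1) (adjusted p = 0.00222). Pecam1 and Kdr were not called. Vasoactive genes rose in 6 of 19 cases and fell in 3 (Edn3, Agt and Npr3, with 2 lower without NX replicate 1), with a median of 0.13 that turns to -0.01 with upper-quartile factors. Ptgs2, the inducible cyclooxygenase, rose 38.2-fold, from 0.519, 0 and 0.293 CPM to 6.12 to 16.3 CPM (median 10.5) (adjusted p = 1.19e-06), Edn1, endothelin, rose 3.85-fold (adjusted p = 1.7e-05) and Nos3, the endothelial nitric oxide synthase, rose 2.58-fold (adjusted p = 0.000327).

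Clock genes were called higher in 9 and lower in 2 (Per3 and Hlf, with 1 lower without NX replicate 1) of 18 cases. Arntl, which encodes BMAL1, went from 1.1, 0.976 and 1.8 CPM to 2.76 to 10.8 CPM (median 5.96) (4.74-fold, log2 fold change 2.25 ± 0.37, adjusted p = 0.000127), and Per3 from 36.9, 45.2 and 35.4 CPM to 13.9 to 23.9 CPM (median 18.1) (2.15-fold lower, adjusted p = 9.61e-05). Nfil3 rose 9.03-fold (adjusted p = 7.38e-07) and Per1, also a target of glucocorticoids and CREB, rose 3.35-fold (adjusted p = 3.26e-05). In TG kidneys without surgery, in a joint scaling with the others, Arntl and Per3 were near the IRI and not the NX level. Arntl had a mean of 9.8, 1.36 and 6.39 CPM and Per3 of 17.2, 41.1 and 19.1 CPM in kidneys without surgery, after NX and after IRI. IRI against kidneys without surgery gave a log2 fold change of -0.61, adjusted p = 0.147 for Arntl and of 0.15, adjusted p = 0.481 for Per3, while Nfil3 (2.73, adjusted p = 3.96e-05) and Per1 (1.94, adjusted p = 0.000778) were called higher there too. The time of day of collection is not in the labels, and its part in these values was not tested.

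The reference matters for other genes as well. With the 3 TG male kidneys without surgery in place of NX, 3900 genes were called higher and 3676 lower, of which 1201 and 1303 by at least 2-fold. Together the calls were 40.3% of the genes tested in that fit, against 29.4% with NX in the main fit. The background of the list counts below therefore differs between the references. Those libraries come from the other count table of the study, so surgery cannot be told apart from whatever else differs between the tables. Against kidneys without surgery 20 of 22 EGR, NR4A and KLF genes and 10 of 13 AP-1 genes were called higher. The proximal tubule transport list had other counts. Against kidneys without surgery 10 of 27 were called higher after IRI and 1 lower, where against NX 2 were higher and 10 lower. Slc2a2 had means of 203, 296 and 216 CPM, Ak4 of 434, 917 and 423 CPM and Cyp2j5 of 1356, 1843 and 1438 CPM, in kidneys without surgery, after NX and after IRI. In these 3 genes the NX level was the highest. Lrp2 was lower with either reference (log2 fold change -0.48, adjusted p = 0.00753 against no surgery). The endothelial identity list was called lower in 11 of 15 cases against no surgery and in 2 against NX.

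The response of TG kidneys was also set beside that of WT kidneys, 6 after IRI and 3 after NX, in the same fit. EGFP was 0 in 8 of the 9 WT libraries, and the library labelled WT IRI replicate 1 held 2.59 CPM of it, which goes against its label. The test of the difference between the 2 responses called 0 genes with edgeR, with 1848 (9.59%) at an unadjusted p under 0.05, 0 with limma-voom and 51 (0.265%) with DESeq2. Without the library labelled WT IRI replicate 1 edgeR again called 0. Havcr1 rose in TG (3.12 ± 0.54) and had a change of 0.62 in WT, where it stood at 0.982 ± 0.557 CPM after NX and 1.51 ± 0.622 CPM after IRI (mean ± SD), a difference of 2.50 ± 0.69 (unadjusted p = 0.00168, adjusted p = 0.376). For Krt20 the changes were 9.13 ± 1.22 and 5.09 (difference 4.04 ± 1.36, unadjusted p = 0.00766, adjusted p = 0.407). Egr1 changed by 7.70 ± 0.33 in TG and 9.13 in WT (difference -1.44 ± 0.34, unadjusted p = 0.000478, adjusted p = 0.376), and Atf3 by 8.84 ± 0.38 and 10.15 (difference -1.31 ± 0.42, unadjusted p = 0.00547, adjusted p = 0.398). For Prox1 the changes were -2.21 ± 0.24 and -0.24 (difference -1.98 ± 0.35, unadjusted p = 2.07e-05, adjusted p = 0.376). None of these passed the adjustment over all genes, so a difference between genotypes was not shown for any of them. Lrp2 changed by -0.98 ± 0.20 in TG and -0.99 in WT (difference 0.01 ± 0.29, unadjusted p = 0.971, adjusted p = 1). These 6 genes were picked for this comparison after their values were seen.

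**Figure D5:**
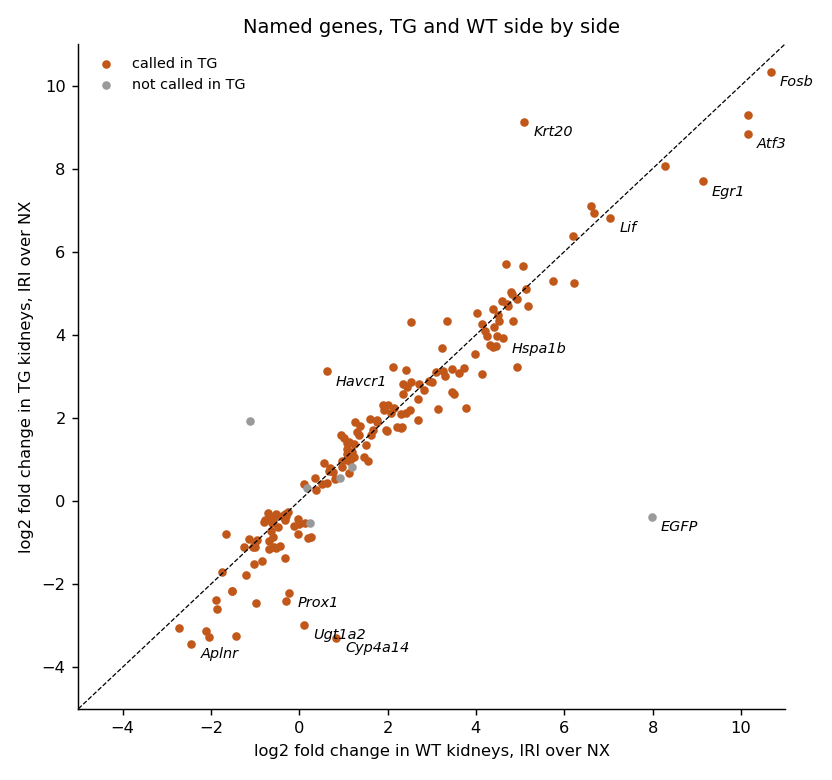
Log2 fold change of IRI over NX in TG kidneys (vertical) against WT kidneys (horizontal) for 175 genes chosen by the naming rule with more than 3 counts in the TG NX libraries, with the dashed line at equal change. Of these, 167 had the same sign in both genotypes. As 169 of the 175 were called in TG, and most were named for a strong or clear change there, this count does not describe all genes. EGFP lies far to the right, where 1 library labelled WT holds it, and Cyp4a14 and Ugt1a2 rest on TG NX replicate 1.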

How the data were processed

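Whole-kidney poly-A RNA was sequenced in pairs. Per the submitters' processing notes, reads were handled with fastp 0.23.2 and STAR 2.7.0 on GRCm39, and per the file headers the deposited counts are whole numbers per gene from featureCounts 2.0.3 over exons of Ensembl release 112 with EGFP added. Other deposited columns, in the authors' tables, give exon length. Counts were even more often than odd (38.8 to 41.5% odd at 10 counts or more), so both reads of a pair may have been counted, and halved counts were tried. The 57133 identifiers were matched to symbols for 51880 (90.8%), and those without a symbol held 0.0839% of counts. Every TG library pair differed beyond counting noise (chi-square per degree of freedom 39.2 to 344.5, 36 pairs), so none was counted as a copy.

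In R 4.3.3, edgeR 4.0.16 (TMM factors, filterByExpr, quasi-likelihood test) was fitted to all 18 NX and IRI libraries with a mean for each genotype and surgery, then TG IRI was set against TG NX, and the difference between the TG and WT responses was tested. In simulated data for this comparison (17990 genes), 100 genes were changed 2-fold and 100 genes 4-fold. Of these, 82% of the 2-fold and 97% of the 4-fold changes were recovered, with 5 false calls. In the real data 29.4% of genes tested were called, a far larger share than was changed in the simulation. The changed genes were drawn only from those with a mean of at least 1 CPM in the TG NX libraries, and recovery was not split by level. These figures therefore cannot be carried over to genes nearly absent after NX. Alternatives used RLE and upper-quartile factors, no filter, halved counts, DESeq2 1.42.0, limma 3.58.1 (voom), a 2-fold minimum, only TG libraries, each library left out, a replicate block and kidneys without surgery as reference. Per-list counts without NX replicate 1 were added after seeing the data.

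The members and the 44 gene lists were chosen with earlier results of these data known. Named genes are Gsta2, EGFP, Havcr1 and Lcn2, the 14 highest and 14 lowest folds (symbol known, at least 1 CPM in the higher group), the 8 largest gains and losses of CPM, and up to 4 called members with the smallest p per list. Egr2, Nfkbia, Cyp4a10, Ucp1 and members named only as called or not called were added. Some genes that meet this rule are not reported here.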

Additional observations from a re-analysis of the deposited data

Results flagged for a closer look

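Among the 6 TG IRI libraries, 7 of the genes named here had 1 library far from the other 5 by Dixon's criterion, which chance alone meets in about 1 of 20 groups, and 168 genes were looked at. IRI replicate 4 was highest for Clec4d, a lectin of myeloid cells (3.78 CPM, next highest 0.694), for S100a9, a subunit of calprotectin (18.2 CPM, next highest 5.28), and for Gatm, of creatine synthesis (1014 CPM, next highest 802). IRI replicate 2 was highest for the injury receptor gene Havcr1 (15.85 CPM, next highest 6.63). IRI replicate 1 was highest for the stress factor gene Atf3 (689 CPM, next highest 465). IRI replicate 5 was highest for the transporter gene Slco4c1 (12.99 CPM, next highest 7.68). IRI replicate 3 was lowest for the urokinase receptor gene Plaur (40.25 CPM, next lowest 51.0).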

How the results depend on the processing

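With the settings tried, the counts of genes higher and lower after IRI stayed within 1.5 times except in these cases. Upper-quartile factors gave 4280 lower genes and 920 lower by at least 2-fold. A test against a 2-fold minimum gave 563 higher and 65 lower genes. With TG kidneys without surgery as reference, 1303 genes were lower by at least 2-fold. DESeq2 called 51 genes for the difference between the TG and WT responses, where edgeR called 0. Leaving out 1 TG library at a time gave 2472 to 3094 higher, 1722 to 2386 lower, 1156 to 1370 higher by at least 2-fold and 481 to 631 lower by at least 2-fold. For the difference between genotypes, leaving out 1 library of either genotype gave 0 to 1 genes, the 1 being Tmem120a without TG NX replicate 1 (adjusted p = 0.0418), named after its value was seen. Of the 3152 higher genes 2125 (67.4%) were called in all 9 fits without 1 TG library, and of the 2509 lower genes 1255 (50.02%). Replicate numbers gave a correlation of deviations of 0.0258 to 0.0825 over 3 same-numbered pairs, and 1 of 3 NX libraries correlated best with its own number. With only 3 such pairs, this check cannot decide whether the numbers pair the libraries. The replicate block gave 2963 higher and 2121 lower genes, 1300 and 597 by at least 2-fold, and 0 for the difference between genotypes. A joint fit of TG male libraries, chosen after seeing the data, gave 3510 higher and 3117 lower against NX.

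Of 168 genes followed through the settings, 16 of the 161 called lost the call without 1 TG library. The counts of named genes in this paragraph are of these 168. Cxcl12, Gclm, Cat, Mmp13, Adamts15, Edem1, Hspd1 and Hspe1, named above without values, are not among them. They also lost the call without 1 TG library. With kidneys without surgery as reference the log2 difference changed sign for Aqp2 (-0.31), Arntl (-0.61), Cyp2j5 (0.0844), Cyp4a10 (0.35), Cyp4a14 (0.88), Gsta2 (0.88), Mgst1 (0.0765), Per3 (0.15), Slc12a1 (0.23), Slc27a2 (0.14), Slc2a2 (0.085), Sord (0.21), Ucp1 (-1.59) and Ugt1a2 (0.61). Of these, Gsta2 and Sord were called in that direction (adjusted p = 0.0214 and 0.0413), and 15 other named genes lost the call against that reference. With limma-voom 7 named genes lost the call: Cxcl2, Cyp4a14, Hba-a1, Ifi202b, S100a8, S100a9 and Ugt1a2 (adjusted p = 0.0534 to 0.463). The replicate block ended the calls of Clec9a, Cyp4a14, Slc22a13 and Slc27a2, and under it Gsta2 was called lower (-0.68, adjusted p = 0.0259). Without a filter Slc27a2 was not called. Leaving out 1 TG library at a time gave -3.85 to 0.27 for Cyp4a14 and -0.75 to 0.043 for Gsta2, both with the sign changed without TG NX replicate 1. The same ranges were -0.18 to 0.0846 for Slc12a1 and -0.12 to 0.24 for Umod, and Umod gave -0.0913 with upper-quartile factors and -0.0121 with the replicate block. Neither Umod nor Slc12a1 was called. The causes were not tested. Genes near 0 counts in 1 group have low precision, and the lower bounds on folds cover counting error only.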

Other observations

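Of 16 genes of steroid and growth hormone signalling 3 rose (Sgk1, Per1 and Zbtb16) and 6 fell (median -0.05). The estrogen receptor gene Esr1 stood at 27.6, 16.2 and 21.9 CPM after NX and at 9.55 to 14 CPM (median 11.4) after IRI (1.89-fold lower, log2 fold change -0.92 ± 0.19, adjusted p = 0.000849). Every IRI library lay below every NX library. Others that fell were Nr3c2, Prlr, Ghr and Igf1. Interferon-stimulated genes were called higher in 3 and lower in 2 of 23 cases (median 0.16). Ifi44 fell 2.59-fold, from 8.27, 6.58 and 8.89 CPM to 2.31 to 3.86 CPM (median 2.91) (adjusted p = 0.000414), and Rsad2 was the other that fell, while Isg20, Oasl1 and Ddx58 rose. Of 17 genes of iron handling and ferroptosis 6 rose and 2 fell, the iron exporter gene Slc40a1 and Cp (median 0.04, which turns to -0.10 with upper-quartile factors). Cell cycle genes were called higher in 3 (Pcna, Cdc20 and Rrm2) and lower in 2 of 28 cases. Rrm1, a subunit of ribonucleotide reductase, fell 1.37-fold, from 13.8, 18.5 and 16.96 CPM to 11.2 to 12.8 CPM (median 11.8) (adjusted p = 0.00224).

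Globin genes were higher after IRI, and the calls depend on NX replicates 1 and 2. Hbb-bs stood at 9.68, 2.43 and 1.31 CPM after NX and at 15.2 to 78.2 CPM (median 23.3) after IRI (log2 fold change 2.90 ± 0.79, adjusted p = 0.00885), with no overlap, and without NX replicate 1 the change was 2.61, adjusted p = 0.0522. Hba-a1 was alike, at 7.68, 2.11 and 1.73 CPM and 11.9 to 60.2 CPM (median 16.1) (log2 fold change 2.68 ± 0.76, adjusted p = 0.0116), and without that library at 2.39, adjusted p = 0.0642. Without NX replicate 2 the adjusted p was 0.0637 for Hba-a1 and 0.04998 for Hbb-bs. Hba-a2, the copy of Hba-a1, is nearly identical to it, so reads may be split. Of 7 globin and red cell genes 4 were called with all libraries and 0 without NX replicate 1. Podocyte markers fell in 2 of 8 cases, Ptpro (adjusted p = 0.0322) and Cdkn1c (adjusted p = 0.0323), and 0 were called without NX replicate 1. None of 12 fibroblast, pericyte and smooth muscle markers, of 9 lymphocyte markers or of 13 mitochondrially encoded subunits was called, and the median of the last turned from 0.12 to -0.02 with upper-quartile factors. Adipocyte markers were called in 0 of 10 cases, with a summed level of 44.0 to 78.4 CPM after NX and 52.3 to 166 CPM after IRI. Ucp1, the uncoupling protein of brown fat, was picked after its values were seen. It stood at 5.4, 0.032 and 0 CPM in the NX libraries and ran from 0 to 28.3 CPM (median 0.047) in the IRI libraries.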
